A study of Mus musculus with 6 samples.

Results

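Described here are the genes of activator protein 1 (AP-1), together with Atf3 and the small MAF genes Maff and Mafk, in RNA sequencing libraries of C57BL/6J mice whose label is primary cardiac fibroblasts. The 10 genes Fos, Fosb, Fosl1, Fosl2, Jun, Junb, Jund, Atf3, Maff and Mafk were chosen by symbol, and each stood on 1 of the 32479 rows of the deposited table. The series compares 3 mice given carbon tetrachloride (CCl4), a solvent that scars the liver and is used to model cirrhosis, with 3 control mice, and asks how liver cirrhosis acts on the heart. The labels name no engineered allele in either group. The sources used here do not give the dose, route or duration of CCl4, what the control mice received, the age and sex of the animals or how the cells were isolated. Each group holds 3 libraries, which the design text ties to 3 mice.

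AP-1 proteins are basic leucine zipper (bZIP) transcription factors that bind DNA as pairs. JUN proteins pair with each other or with FOS proteins, while FOS proteins need a JUN partner, and the pair formed sets which genes are switched on. Fos, Fosb, Junb and Atf3 are immediate early genes, which are transcribed within minutes of a stimulus such as stretch, growth factors or tissue injury, and whose messengers are short-lived. ATF3 is a related stress-induced factor that often represses transcription, and the small MAF proteins lack an activation domain and pair with NRF2 and BACH1 at antioxidant response sites.

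The promoters of Fos, Atf3 and Maff are shown because these genes differed most between the groups or had a cAMP response element core, TGACGT, near an annotated start. The sequences run 5′ to 3′ on the strand of the gene, are taken from RefSeq on GRCm38.p6, and run from 250 bases before the annotated start to 50 bases after it. Capitals mark TGACGT on either strand (ACGTCA when read on the other) and, for Fos, the TATA box TATAAA on the strand of the gene. The window of Fos lies at chr12:85473640-85473939 on the plus strand, that of Atf3 at chr1:191183284-191183583 on the minus strand and that of Maff, at the second of 3 annotated starts, at chr15:79347270-79347569 on the plus strand.
Fos: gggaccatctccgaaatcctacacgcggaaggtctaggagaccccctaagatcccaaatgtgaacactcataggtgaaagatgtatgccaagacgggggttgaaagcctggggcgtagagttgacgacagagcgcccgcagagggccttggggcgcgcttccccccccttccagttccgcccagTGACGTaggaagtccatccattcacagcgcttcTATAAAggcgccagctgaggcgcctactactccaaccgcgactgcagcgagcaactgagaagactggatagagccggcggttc
Atf3: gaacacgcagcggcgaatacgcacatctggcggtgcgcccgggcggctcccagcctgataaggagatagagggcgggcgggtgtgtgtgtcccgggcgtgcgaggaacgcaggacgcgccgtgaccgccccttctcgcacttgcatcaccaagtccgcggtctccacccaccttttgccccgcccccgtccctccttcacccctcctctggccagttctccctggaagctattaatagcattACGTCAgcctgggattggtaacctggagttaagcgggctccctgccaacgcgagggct
Maff: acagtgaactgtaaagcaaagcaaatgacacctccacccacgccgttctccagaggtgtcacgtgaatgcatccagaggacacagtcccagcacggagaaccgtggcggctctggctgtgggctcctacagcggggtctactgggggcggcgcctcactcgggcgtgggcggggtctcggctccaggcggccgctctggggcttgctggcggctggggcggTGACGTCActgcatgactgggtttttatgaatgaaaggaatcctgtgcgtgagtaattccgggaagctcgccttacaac

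In Fos the TGACGT core began at position -66 and TATAAA at -33 relative to the annotated start. In Atf3 the core began at -8, and in Maff the 2 matches at -29 and -27 are both strands of 1 palindrome. RefSeq promoter windows were found for 9 of the 10 genes, in 11 windows, and TGACGT lay in those of Fos, Atf3 and Maff. Among 10364 promoter windows of tested genes 11.8% held it, among all 32851 windows 7.51%, and among 39 windows of other immediate early genes 10 did. The AP-1 site TGANTCA and the CArG box, the serum response element core, were also searched on both strands, and neither was found in these 11 windows. They lay in 4.91% and 1.37% of the windows of tested genes. The Jund window, at chr8:70697489-70697788, ends before the gene start given below, 70698949. The Atf3 window belongs to a start inside the gene given below, whose first base on the minus strand is 191218039. That of Fosl2, at chr5:32136222-32136521, lies after the gene start given below, 32135801. The windows of Jund, Atf3 and Fosl2 therefore do not describe the bases next to these gene starts. A match describes the letters only. Sites more than 250 bases before an annotated start were not searched, so an absence holds for these windows and not for the gene.

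The messengers of the 10 genes were searched as well. AU-rich stretches in the 3′ untranslated region (UTR) mark many short-lived messengers, and ATTTA is their core. In GENCODE M21 transcripts, 1 per gene, all 10 had ATTTA in the 3′ UTR, against 69.2% of 9308 genes with a tested row. The longer form TATTTAT lay in 8 of the 10, all but Junb and Mafk, against 28.9% of those genes, with median UTR lengths of 1203.5 and 1077 bases. Of 36 other immediate early genes 20 had it. The first TATTTAT is shown in capitals for Fos, Atf3 and Maff, whose promoters are shown above, and for Jund, the least changed tested gene. Each lies in a stretch on the strand of the transcript.
Fos: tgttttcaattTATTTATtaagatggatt
Atf3: aaaatattactTATTTATcccagtattcc
Maff: ttccacactctTATTTATtgcacgaatct
Jund: cgattccgcccTATTTATgtttctactcg

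ATTTA occurred 4.91 times per kb of 3′ UTR in Fos, 2.53 in Atf3, 3.28 in Maff, 1.88 in Jund and 0.466 in Fosb, the lowest of the 10. The median was 2.20 over the 10 genes, 2.33 over the other immediate early genes and 1.33 over genes with a tested row. Junb, with 4.12 per kb, had ATTTA without the longer form.

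Values are FPKM (sequenced fragments normalised for gene length and library size) as the authors deposited them, with no fragment counts behind them, so the depth of each library is unknown. FPKM sums per library ran from 588660 to 602763 in CCl4 and from 519609 to 542738 in control. Rows of the mitochondrial genome took 52.0% to 53.2% of the sum in CCl4 and 48.6% to 50.7% in control libraries. Markers of heart muscle cells were far above those of fibroblasts in all 6 libraries, which goes against the label. The 12 cardiomyocyte markers summed to 19808 to 21566 FPKM in CCl4 and 13527 to 17095 in control libraries, and the 12 fibroblast markers to 595.7 to 602.9 FPKM in CCl4 and 457.9 to 745.2 FPKM in control libraries. None of the fibroblast markers was at 0, but the fibroblast factor Tcf21 was at 2.72 to 2.85 FPKM in CCl4 and 1.96 to 2.66 FPKM in control libraries. The libraries therefore hold RNA of several cell types, and fewer cells of a type that makes a messenger cannot be told apart from less of that messenger per cell.

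In CCl4 libraries every AP-1, Atf3 and small MAF gene that could be tested was lower than in control libraries. Of these, Atf3 and Fos differed most, with mean FPKM 28.2-fold and 40.4-fold lower in CCl4, and Jund least, at 1.47-fold lower. Rows with a mean of at least 1 FPKM over the 6 libraries were tested on log2(FPKM + 1) with limma, and a row was called at a Benjamini-Hochberg adjusted p under 0.05 over all 10995 rows tested. Of the 10 genes 8 passed this filter, and all 8 were called lower, where 22.2% of all tested rows were. The CCl4 libraries lay below all control libraries for these 8, as they did for 34.0% of tested rows. Fos and Atf3 passed the filter through the control libraries alone, since their CCl4 means were under 1 FPKM. Their presence in the test therefore required a difference. The median log2 fold change of all tested rows was -0.09.

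**Figure D1:**
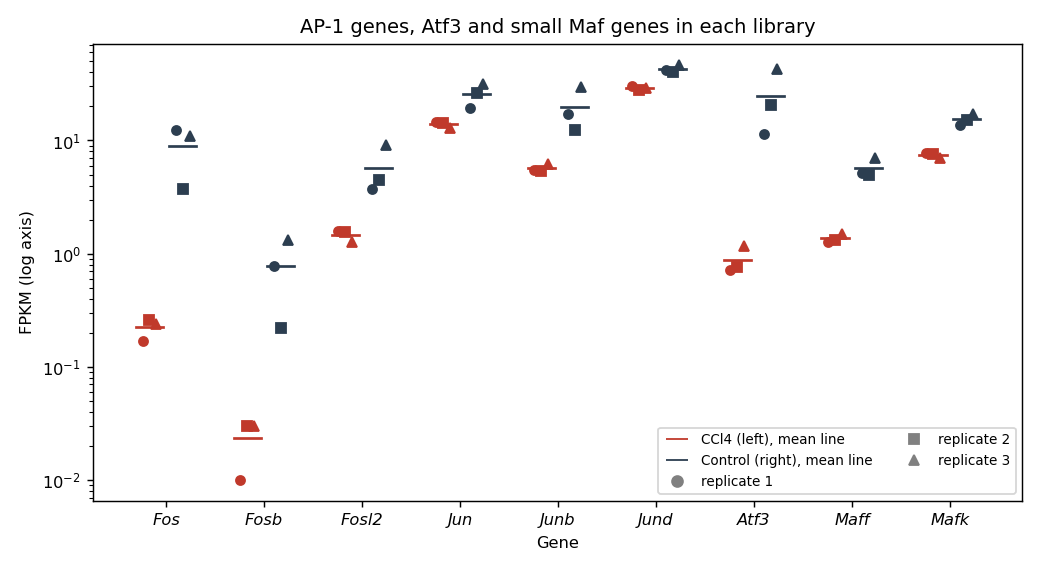
FPKM of 9 of the 10 genes in each library on a log axis, with CCl4 libraries in red to the left and control libraries in dark blue to the right of each gene, a line at the group mean and a symbol for each replicate. Fosl1 is left out because 5 of its 6 values were 0. In all 9 genes the CCl4 points lie below the control points, with Fos between 0.17 and 0.26 FPKM in CCl4 and between 3.69 and 12.39 FPKM in control libraries.

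The FOS proteins were followed first, as the partners that turn JUN into a strong activator. Fos, the founding member, was at 0.17, 0.26 and 0.24 FPKM in CCl4 replicates 1 to 3, against 12.39, 3.69 and 10.98 FPKM in control replicates 1 to 3. Control replicate 2 was the lowest of its group and still stood above every CCl4 library. Fos lies on chromosome 12 at 85473890 to 85477273 (GRCm38, GENCODE M21) in 4 exons. It fell by 2.89 ± 0.34 on the log2(FPKM + 1) scale (SE; limma adjusted p = 0.000917). Because its CCl4 values lie far under the pseudocount of 1, the size depends on that choice, and the log2 fold change was -4.65 and -5.11 with pseudocounts of 0.1 and 0.01. In rank, Fos stood between the 51.8th and 54.8th percentile of all rows in CCl4 libraries and between the 81.3rd and 92.6th in control libraries.

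Fosb (chromosome 7, 19302696 to 19310051, minus strand), which is induced with Fos and also yields the long-lived splice form deltaFosB in the brain, was at 0.01, 0.03 and 0.03 FPKM in CCl4, against 0.78, 0.22 and 1.32 FPKM in control libraries. The groups did not overlap, but the gene lay under the filter. With no filter its log2 fold change was -0.74 ± 0.22 (SE; limma adjusted p = 0.091), so it was not called, where 6.54% of the 27449 rows in that fit were called lower. Values of 0.01 to 0.03 FPKM are at the last decimal of the table and carry little precision. Control replicate 2 was low for Fosb as it was for Fos.

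Fosl2 (FRA2; chromosome 5, 32135801 to 32157842), a FOS protein without the strong activation domain of FOS that has been tied to fibrosis in mice, was at 1.58, 1.56 and 1.27 FPKM in CCl4 and 3.76, 4.44 and 9.06 FPKM in control libraries. Control replicate 3 stood well above the other controls, and the CCl4 libraries lay close together. The gene fell by 1.37 ± 0.25 (SE; adjusted p = 0.00511), and by 1.05 without control replicate 3. Fosl1 (FRA1; chromosome 19, 5447547 to 5455946), a related FOS protein, was listed at 0 in all control libraries and in CCl4 replicates 1 and 3, and at 0.04 FPKM in CCl4 replicate 2. No comparison was drawn for it.

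Among the JUN genes, Junb moved most. Junb (chromosome 8, 84974484 to 84978718, minus strand), which can restrain JUN in some settings, was at 5.48, 5.33 and 6.16 FPKM in CCl4, against 17.14, 12.47 and 29.83 FPKM in control libraries. It fell by 1.56 ± 0.26 (SE; adjusted p = 0.00354). The Junb gene, whose transcript has 1 exon, overlaps Prdx2, a peroxiredoxin gene on the other strand, over 351 bases, and the sources used here do not give the strand setting of the quantification. Prdx2 was at 59.99 to 61.45 FPKM in CCl4 and 56.77 to 66.88 FPKM in control libraries (log2 fold change -0.03, adjusted p = 0.831), so its level did not follow that of Junb.

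Jun (chromosome 4, 95049034 to 95052222, minus strand), the strongest activator of the JUN proteins and a target of the kinase JNK, was at 14.71, 14.20 and 12.86 FPKM in CCl4 and 19.49, 26.01 and 31.46 FPKM in control libraries. It fell by 0.81 ± 0.15 (SE; adjusted p = 0.00641). Jund (chromosome 8, 70698949 to 70700616), which is expressed in many resting tissues and whose loss worsens hypertrophy in mouse hearts, was at 30.13, 27.95 and 29.28 FPKM in CCl4 and 41.69, 40.08 and 46.67 FPKM in control libraries. The fold difference between the group means was smaller than in any other tested member, yet the replicates were close. Jund fell by 0.54 ± 0.08 (SE; adjusted p = 0.00261). Both transcripts have 1 exon. The antisense genes Junos and Gm11175 at these loci were at most at 0.27 and 0.21 FPKM in any library.

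Atf3 was at 0.72, 0.76 and 1.17 FPKM in CCl4, against 11.50, 20.73 and 42.60 FPKM in control libraries. The control values spread 3.70-fold from lowest to highest, and the groups stood far apart. Atf3 lies on chromosome 1 at 191170296 to 191218039 on the minus strand. It fell by 3.61 ± 0.38 (SE; adjusted p = 0.000518), the fourth lowest log2 fold change among the 10995 tested rows, where Fos took place 9. Atf3 was at 4.24, 2.92 and 4.88 times the FPKM of Fos in CCl4 replicates 1 to 3, and at 0.928, 5.62 and 3.88 times in control replicates 1 to 3. The ratio of these genes thus varied more among control libraries, and the groups overlapped.

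Maff (chromosome 15, 79346621 to 79359076), an inducible small MAF, was at 1.27, 1.32 and 1.5 FPKM in CCl4 and 5.12, 4.92 and 6.95 FPKM in control libraries. It fell by 1.48 ± 0.12 (SE; adjusted p = 0.000194). Mafk (chromosome 5, 139791513 to 139802653), its more constant relative, was at 7.75, 7.67 and 7.05 FPKM in CCl4 and 13.68, 15.21 and 17.29 FPKM in control libraries, and fell by 0.94 ± 0.10 (SE; adjusted p = 0.000451). Of the 8 tested genes these had the smallest adjusted p. The third small MAF, Mafg, was at 5.43 to 5.87 FPKM in CCl4 and 7.68 to 9.92 FPKM in control libraries and fell by 0.54 (adjusted p = 0.00489).

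**Figure D2:**
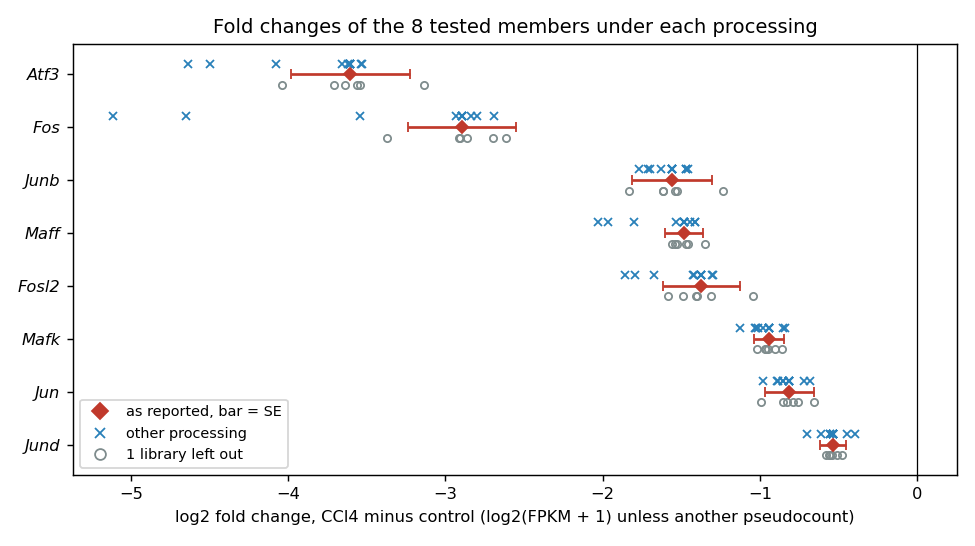
Log2 fold change (CCl4 minus control) of the 8 tested genes, with the reported value and its SE as a red diamond and bar, other processing as blue crosses and fits without 1 library as grey circles. All points lie left of 0, from -5.11 for Fos with the smallest pseudocount to -0.40 for Jund with quantile normalization.

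The level of each gene relative to Jund was compared within libraries, where library scaling cancels. The log2 ratio of Fos to Jund was -7.05 ± 0.38 in CCl4 and -2.43 ± 0.89 in control libraries (SD, n = 3 each). For Atf3 it was -5.08 ± 0.39 in CCl4 and -0.98 ± 0.86 in control libraries (SD, n = 3 each). For Fosb it was -10.5 ± 0.96 in CCl4 and -6.13 ± 1.23 in control libraries (SD, n = 3 each). The log2 ratios of Fosl2, Junb, Maff and Mafk to Jund differed by -1.31, -1.16, -1.49 and -0.48 (CCl4 minus control). In these 7 genes the groups did not overlap. The two-sided exact permutation p was 0.1, the smallest that 3 against 3 libraries allow (0.114 adjusted over 8 ratios). How often the ratios of other genes to Jund stood apart in this way was not computed. In FPKM, the CCl4 libraries lay below all control libraries for 34.0% of tested rows. The size of the Fos, Fosb, Fosl2, Atf3 and Maff ratios rests on values under or near 1 FPKM. With 1 FPKM added to both values the difference for Fosb was -0.21 in place of -4.32 (exact permutation p = 0.4), and for Fos -2.36 in place of -4.62. For Fosl2 it was -0.83 in place of -1.31 and for Maff -0.95 in place of -1.49, with the groups still apart in these and in Fos (exact permutation p = 0.1). The ratio of Jun to Jund overlapped between the groups, with a log2 ratio of -1.07 ± 0.11 in CCl4 and -0.76 ± 0.29 in control libraries (SD, n = 3 each; exact permutation p = 0.3).

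The order of levels changed with the group. FPKM is per kilobase, so levels can be set side by side between genes. In CCl4 libraries the order from the top was Jund, Jun, Mafk, Junb, Fosl2, Maff, Atf3, Fos, Fosb and Fosl1, and the ranges of neighbours overlapped only for Fosl2 with Maff and for Fosb with Fosl1. In control libraries it was Jund, Jun, Atf3, Junb, Mafk, Fos, Fosl2, Maff, Fosb and Fosl1. There the ranges of Jun, Atf3, Junb and Mafk overlapped from one neighbour to the next, as did those of Fos, Fosl2 and Maff. Atf3 therefore stood at place 7 in CCl4 and at place 3, not separable from its neighbours, in control libraries.

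Summed over the FOS genes, the level was 1.73 ± 0.18 FPKM in CCl4 and 15.5 ± 6.61 FPKM in control libraries (SD, n = 3 each). Over the JUN genes it was 48.7 ± 1.46 FPKM in CCl4 and 88.3 ± 17.0 FPKM in control libraries (SD, n = 3 each). For each 100 FPKM of JUN messengers there were 3.19 to 3.98 FPKM of FOS messengers in CCl4 and 10.6 to 21.6 in control libraries. Fosl2 made up 82.5% to 89.8% of the FOS sum in CCl4 and 22.2% to 53.2% in control libraries, and Fos made up 9.66% to 15.6% in CCl4 and 44.2% to 73.2% in control libraries. Jund took 58.9% to 60.6% of the JUN sum in CCl4 and 43.2% to 53.2% in control libraries. These sums describe messengers and not protein pairs.

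**Figure D3:**
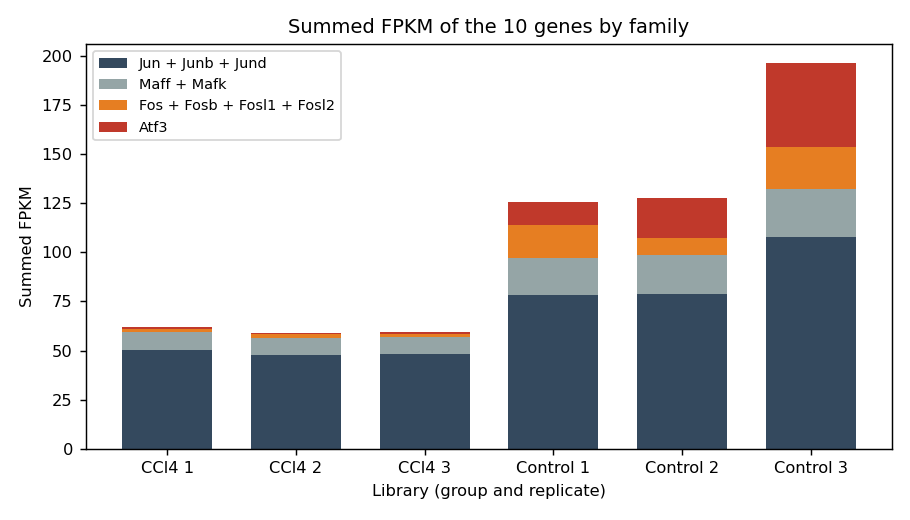
Stacked bars of summed FPKM of the 10 genes in each library, CCl4 libraries first, with the JUN genes at the bottom, then the small MAF genes, the FOS genes and Atf3. The bars reach 59.1 to 61.8 FPKM in CCl4 and 125.6 to 196.2 FPKM in control libraries, and control replicate 3 is the tallest through its Atf3 and JUN levels.

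In the 9 genes other than Fosl1 the control libraries differed among themselves more than the CCl4 libraries, by fold from lowest to highest. The highest value was 1.53 times the lowest in CCl4 and 3.36 times in control libraries for Fos, and 1.63 times in CCl4 and 3.70 times in control libraries for Atf3. For Fosl2 it was 1.24 times in CCl4 and 2.41 times in control libraries, and for Junb 1.16 times in CCl4 and 2.39 times in control libraries. For Jund it was 1.08 in CCl4 and 1.16 in control libraries. Genes outside the family went both ways. The fibroblast marker Dcn was at 1.09 times in CCl4 and 1.72 times in control libraries, and the early gene Zfp36 at 1.39 and 1.22 times. The share of all rows with a wider control spread was not computed, so this spread is not read as particular to the AP-1 genes. Control replicate 3 was the highest control for 8 of the 10 genes, all but Fos and Fosl1. Without it the log2 fold change was -3.14 for Atf3 and -1.23 for Junb. Over all alternatives the limma adjusted p ran from 0.000165 to 0.00687 for Atf3 and from 0.001 to 0.024 for Junb.

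The other genes around AP-1 were described by lists, with the 10 genes left out of each. Of the 37 tested other immediate early genes 25 were called lower and 1 higher, with a median log2 fold change of -0.95, where 22.2% and 9.64% of all tested rows were called lower and higher. Zfp36, whose protein binds AU-rich messengers and speeds their decay, fell by 1.95 (adjusted p = 7.72e-05). Csrnp1, a nuclear protein of the early response, and Dusp4, a phosphatase of MAP kinases, fell by 1.59 and 1.34. Ccn2, a matricellular growth factor, was at 14.1 ± 2.55 FPKM in CCl4 and 86.4 ± 20.5 FPKM in control libraries (SD, n = 3 each) and fell by 2.52. Gadd45a, a stress gene, was the 1 called higher and rose by 0.82. Of the 37 tested genes 6 had a mean under 1 FPKM in CCl4 alone and so passed the filter through the control libraries. Dusp4, Myc, Socs3, Plk3 and Nr4a2, all called lower, are among them.

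**Figure D4:**
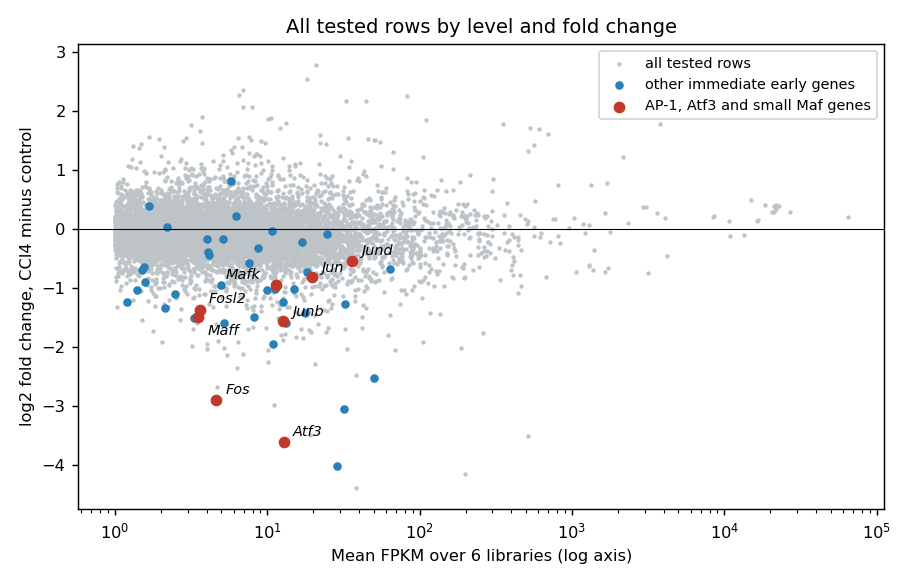
Log2 fold change (CCl4 minus control) of all 10995 tested rows against mean FPKM on a log axis, with other immediate early genes in blue and the AP-1, Atf3 and small MAF genes in red. Atf3 (-3.61) and Fos (-2.89) lie near the lower edge of the cloud, and Jund (-0.54) lies inside it.

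Other bZIP genes, which can share dimers or sites with AP-1, were lower in 15 of 30 tested and higher in 3 (median -0.26), where 22.2% and 9.64% of all tested rows were called lower and higher. Without CCl4 replicate 3 the count of lower genes was 9, and 1 tested gene had a mean under 1 FPKM in control alone. Cebpb and Cebpd, bZIP factors of inflammation and fat cell formation, were at 8.32 ± 0.805 and 2.69 ± 0.258 FPKM in CCl4 and 30.5 ± 3.93 and 7.29 ± 1.58 FPKM in control libraries (SD, n = 3 each). They fell by 1.75 and 1.15. Dbp, a clock output factor, rose by 1.16. Jdp2, a repressor that binds JUN, fell by 0.42 (adjusted p = 0.0157), a call lost without CCl4 replicate 1 or 3 and with no filter. Batf3, a JUN partner of dendritic cells, was at 0.06 to 0.14 FPKM in CCl4 and 0.10 to 0.23 FPKM in control libraries and lay under the filter. The small MAF partners Nfe2l2 (NRF2) and Bach1 fell by 0.56 and 0.42 (adjusted p = 0.0062 and 0.00568).

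Genes of the small MAF and NRF2 pathway were lower in 16 of 29 tested and higher in none (median -0.32), or 55.2% lower against 22.2% of all tested rows. Of the 29, 2 had a mean under 1 FPKM in CCl4 alone and so passed the filter through the control libraries. The catalase gene Cat fell by 0.97, the selective autophagy receptor Sqstm1 by 0.81, the glutathione transferase Gstm1 by 0.81 and the malic enzyme Me1 by 0.59. Among ATF3 and stress response genes 11 of 20 were lower and 1 was higher (median -0.31), or 55.0% lower against 22.2% of all tested rows. In this list 1 gene had a mean under 1 FPKM in CCl4 alone and 1 in control alone. The list shares 3 genes with the other bZIP genes and 2 with the small MAF and NRF2 list. The small MAF and NRF2 list shares 4 with the other bZIP genes. Each of the stress and the small MAF lists shares 1 gene with the AP-1 targets below. The counts of these lists are therefore not separate observations. The lipoprotein receptor Vldlr fell by 1.69, the mTOR inhibitor Ddit4 fell by 2.28 and Ppp1r15a, which restores translation after stress, fell by 1.39. Atf4, the factor of the integrated stress response that induces Atf3, was at 21.29 to 23.05 FPKM in CCl4 and 26.22 to 29.04 FPKM in control libraries. It fell by 0.28 (adjusted p = 0.0238). Ddit3 (CHOP), a target of ATF4, went the other way and rose by 0.37 (adjusted p = 0.0283). The adjusted p over the alternatives ran from 0.00353 to 0.181 for Atf4, whose call was lost without control replicates 2 or 3 or CCl4 replicates 2 or 3. It ran from 0.0142 to 0.11 for Ddit3, whose call was lost without control replicates 1 or 3 or CCl4 replicates 2 or 3. With median-ratio or quantile scaling Atf4 was not called either, nor was Ddit3 as TPM, without the mitochondrial rows or with no filter.

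Most kinases and factors upstream of AP-1 did not pass the test. Of 38 tested 6 were called lower and 4 higher (median 0.01), 15.8% and 10.5%, where 31.8% of all tested rows were called in either direction, and nothing particular to the list is read from these counts. These counts ran from 1 to 10 lower and from 1 to 6 higher over the alternatives, with 1 lower and 1 higher without control replicate 2 or without CCl4 replicate 3. The stress kinase Map3k5 (ASK1), Cops5 (JAB1), a JUN co-activator, and the serum response co-factor Mrtfb fell by 0.56, 0.33 and 0.29, but the calls of Cops5 and Mrtfb were lost with median-ratio or quantile scaling and without control replicate 2 or CCl4 replicate 3. That of Mrtfb was also lost with no filter and without control replicate 3 or CCl4 replicate 1. Mapk10 (JNK3) rose by 0.48, at 1.57 to 1.76 FPKM in CCl4 and 0.78 to 0.96 FPKM in control libraries. Its control mean was under 1 FPKM, so it passed the filter only through the CCl4 libraries. Of the genes called lower, 1 had a mean under 1 FPKM in CCl4 alone and so passed the filter through the control libraries. Kinase activity and phosphorylation of JUN were not measured.

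Of 24 tested genes listed as AP-1 targets 8 were lower and 6 higher (median 0.16), or 33.3% and 25.0%, where 22.2% and 9.64% of all tested rows were. Of the 6 higher genes 2, Plau among them, had a control mean under 1 FPKM and passed the filter only through the CCl4 libraries. The cell cycle inhibitor Cdkn1a was at 2.79, 3.56 and 3.72 FPKM in CCl4 and 11.06, 15.6 and 11.75 FPKM in control libraries, and fell by 1.66. The cyclin Ccnd1 and the urokinase Plau rose by 1.25 and 0.56. Ccnd1 was at 12.66 to 13.48 FPKM in CCl4 and 4.4 to 5.34 FPKM in control libraries. Without control replicate 3, 10 were higher.

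**Figure D5:**
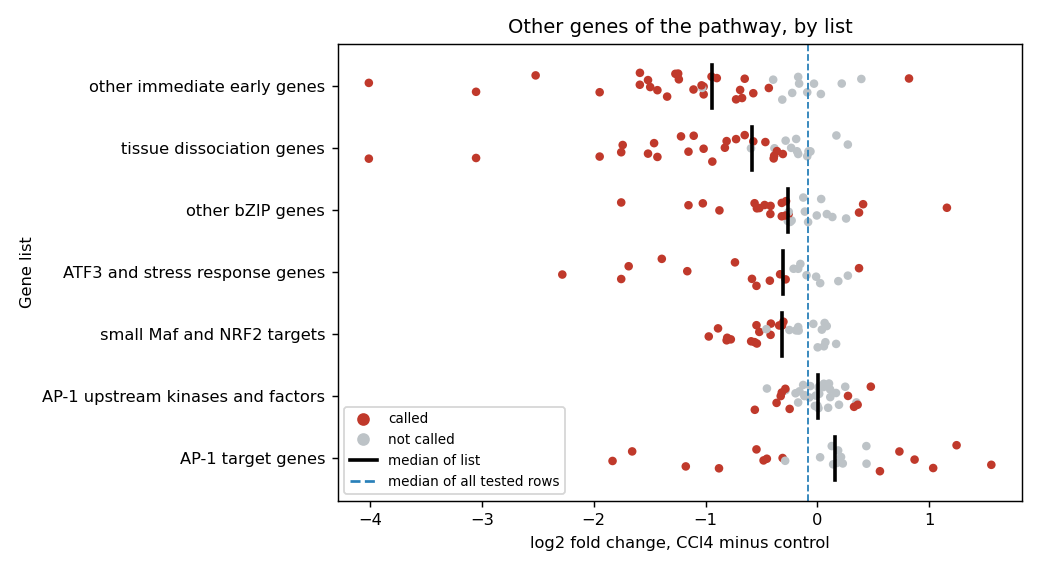
Log2 fold change (CCl4 minus control) of each tested gene in 7 lists, with called genes in red, others in grey, a black bar at the median of the list and a dashed line at the median of all tested rows (-0.09). The immediate early genes have the lowest median (-0.95) and the AP-1 targets the highest (0.16).

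By profile over the 6 libraries, the genes most like Fos were Ccn2, the desaturase Scd4, the anti-proliferative early gene Btg2 and the G protein regulator Rgs2. Their root mean square differences were 0.445, 0.450, 0.470 and 0.541 on the centred log2(FPKM + 1) scale. Among those most like Atf3 were the nuclear receptor Nr4a1 (0.429), Btg2 (0.443) and the thioesterase Acot1 (0.492). Nr4a1 was at 3.49, 1.97 and 1.61 FPKM in CCl4 and 36.58, 45.14 and 83.1 FPKM in control libraries, and Atf3 likewise was highest in control replicate 3 and lowest of the controls in replicate 1. Those most like Jund were Trarg1, Ifitm1, Taf7 and Sde2 (0.0314 to 0.049). The measure includes the difference between the groups.

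Immediate early genes, AP-1 genes among them, are also known to be switched on while tissue is taken apart into cells, and a list of genes reported for that handling moved with the AP-1 genes. Of its 36 tested genes, the 10 genes left out, 23 were lower in CCl4 and none was higher (median -0.58), or 63.9% lower against 22.2% of all tested rows. Of the 36, 2 had a mean under 1 FPKM in CCl4 alone and 1 in control alone, and 11 of its genes are also on the immediate early list. The list also shares 2 genes with the other bZIP genes, 1 with the stress list and 1 with the small MAF and NRF2 list. Pnrc1, a nuclear receptor co-activator, and Nfkbia, the inhibitor of NF-kB, fell by 1.22 and 1.11. The part of tissue handling in the AP-1 result was not tested, and the labels do not state how long the handling took.

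Markers of cell types were described beside the AP-1 genes. Of 12 cardiomyocyte markers 2 were higher and 0 lower, of 12 fibroblast markers 7 and 0, of 12 endothelial markers 1 and 2, of 10 smooth muscle and pericyte markers 3 and 0, and of 10 tested macrophage markers 1 and 1. Of all tested rows 9.64% were called higher and 22.2% lower. Nothing particular is read from the cardiomyocyte, endothelial and macrophage counts. Summed endothelial markers ran from 636.5 to 704.0 FPKM in CCl4 and from 876.5 to 958.1 FPKM in control libraries. Cd36, which heart muscle also makes, was the most abundant, with means of 332.4 FPKM in CCl4 and 572.6 FPKM in control libraries. The median log2 fold change of the 12 endothelial markers was 0.12, so the lower sum does not describe the typical marker. Summed macrophage markers ran from 174.6 to 193.4 FPKM in CCl4 and from 156.4 to 200.3 FPKM in control libraries. All 5 erythroid markers were higher in CCl4, with summed levels of 2231 to 4092 FPKM against 537.0 to 2268 FPKM in control libraries. Neutrophil markers summed to 2.66 to 6.38 FPKM in CCl4 and 2.64 to 24.4 FPKM in control libraries. Lymphocyte, Schwann, mesothelial and adipocyte markers summed to at most 6.59 FPKM in any library. No marker was at 0 in all libraries, and the part of cell composition in the AP-1 result was not tested.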

How the data were processed

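RNA sequencing of 3 CCl4 and 3 control libraries, labelled as cardiac fibroblasts, was used. Per the labels' protocols, poly(A) RNA was selected with oligo(dT), and libraries kept strand and were read from both ends. The authors deposited FPKM per gene at 2 decimals, which the submitters' processing notes tie to StringTie 2.1.6 and GRCm38. The sources used here do not give the aligner, annotation release or filters. FPKM does not hold fragment counts. Low values of single-exon genes of 300 to 1200 bases were checked for whole fragments, and 19.4% to 36.2% per library lay within 10% of one, where an even spread gives 20%, so no count test was run.

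Rows averaging 1 FPKM or more were compared on log2(FPKM + 1) with limma 3.58.1 in R 4.3.3 (lmFit, eBayes with trend, two-sided, no covariate), with Benjamini-Hochberg adjustment over the 10995 rows, after a test on simulated data. Fold changes are CCl4 minus control and understate those of low genes. Single ratios were compared by exact permutation (scipy 1.17.1). Samples are separate mice per the design text.

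The 10 genes, the gene lists and the tests were chosen with earlier results of these data known. Beside the 10 genes, the text names for each list up to 4 called genes, those of smallest p, then 7 further bZIP genes, the 4 most similar profiles to Fos, Atf3 and Jund, and abundant markers; some genes that this rule names are not reported here. Gadd45a, Prdx2, Junos, Gm11175 and Tcf21 were named after their values were seen. Symbols were matched to GENCODE M21 (96.8% of 32415 symbols). Alternatives are listed in the closing section.

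Same-numbered CCl4 and control libraries did not deviate together, with correlations of -0.064, 0.046 and -0.038, so the numbers were not taken as pairs.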

Additional observations from a re-analysis of the deposited data

How the results depend on the processing

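The log2 fold changes of the 8 tested genes were refitted with pseudocounts of 0.1 and 0.01, no filter or a stricter one at 5 FPKM, conversion to TPM, median-ratio and quantile scaling, without the mitochondrial rows, without trend, with robust variances, with library weights, with a replicate block and without each library in turn. All 141 values kept their direction and an adjusted p under 0.05. Fos, Fosl2 and Maff lie under a mean of 5 FPKM and have no value there. With the replicate block, which rests on numbers that do not pair the libraries, 861 rows were called higher and 1790 lower, and all 8 genes were still called, while Atf4 and Mrtfb were not (adjusted p = 0.0716 and 0.0535). As reported, rows called higher in CCl4 were 1060 and rows called lower in CCl4 were 2441. These became 617 and 4221 as TPM, 1722 and 1641 with quantile scaling, 1569 and 1635 with median-ratio scaling, 799 and 3122 without mitochondrial rows, and 655 and 1510 under the stricter filter. They ran from 642 to 1137 higher and from 1546 to 2121 lower when 1 library was left out, with 642 and 1546 without CCl4 replicate 3 and 648 higher without control replicate 2. The higher share of calls was 30.3% as deposited, 12.8% as TPM, 49.0% with median-ratio and 51.2% with quantile scaling, and the median log2 fold change was -0.09, -0.23, -0.01 and -0.01.

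With 1 added to both values, the log2 ratio to Jund differed between the groups by -2.36 for Fos, -0.21 for Fosb, -0.83 for Fosl2, -3.07 for Atf3 and -0.95 for Maff, against -4.62, -4.32, -1.31, -4.10 and -1.49 without it (exact permutation p for Fosb 0.4 with it), since a pseudocount shrinks low values. Without 1 library they ran from -5.13 to -4.29 for Fos, -5.01 to -3.77 for Fosb, -4.54 to -3.67 for Atf3 and -1.55 to -1.39 for Maff. Counts of the immediate early list ran from 16 to 29 lower and from 1 to 3 higher, those of upstream genes from 1 to 10 lower and 1 to 6 higher, and those of AP-1 targets from 4 to 8 lower and 3 to 10 higher. For other bZIP genes it was 8 to 19 lower, with 9 without CCl4 replicate 3. Among 42 named genes outside the family, 696 of 725 values kept direction and call and none reversed. Depth is unknown, so the precision of values near 0.01 FPKM cannot be stated.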
